A study of Homo sapiens with 6 samples.

Results

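Glutamate-linked aminotransferases are enzymes that move an amino group between an amino acid and a 2-oxo acid, with glutamate or 2-oxoglutarate as the usual partner. A set of 9 such genes was followed by their symbols in the count tables. They were GOT1, GOT2, GPT2, BCAT1, BCAT2, KYAT1, KYAT3, AADAT and ABAT, and these 9 of 28265 gene rows were all among the 13949 genes with enough counts to be tested. The libraries came from MDA-MB-231, an established triple-negative human breast cancer cell line, and from its glutamine-independent derivative MDA-MB-231GlnIND, with 3 polyA RNA libraries per group. The medium of the parental cells was RPMI with glutamine and 10% fetal bovine serum. GlnIND cells had been kept in medium without glutamine, with 10% dialysed fetal bovine serum, for more than 6 weeks. Cell population, glutamine supply and serum type therefore changed together and cannot be told apart. Whether the derivative is a clone or a mixed population, and whether replicates came from separate cultures, is not given in the sources used here, so p-values measure the spread between libraries, which may be technical.

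As background, every enzyme of this family carries pyridoxal phosphate, a form of vitamin B6, and many of the reactions can run either way. Glutamate is the common amino donor, so the family links glutamine-derived nitrogen to aspartate, alanine and the branched-chain amino acids. Many of these reactions exist in a cytosolic and a mitochondrial version made from separate genes. The aspartate pair, GOT1 in the cytosol and GOT2 in mitochondria, carries reducing equivalents between the compartments as part of the malate-aspartate shuttle.

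Total counts ranged from 18256219 to 24594248 per library, and 60.6% to 65.0% of genes under 20 counts had an even count, a pattern that counting the 2 reads of a pair separately would give. The detection floor was therefore set at 3 read pairs, or 6 counts, which is 0.244 to 0.329 CPM, the unit of counts relative to the total of a library. Raw totals were used for this range, and scaled (TMM) library sizes for the other CPM values. Vimentin (VIM), which this mesenchymal-like line is known for, was at 3818 to 6143 CPM, while the hormone receptor genes ESR1 and PGR reached at most 0.307 CPM in any library. ERBB2 was at 31.5 to 65.2 CPM. The leukocyte and liver genes CD3E and ALB had no counts, and PTPRC reached at most 0.248 CPM. CD68, also listed as a leukocyte gene, was at 157.8 to 201.2 CPM. PECAM1 (endothelium) was at 2.3 to 4.7 CPM, COL1A1 (fibroblasts) at 3.8 to 13.1 and GFAP (glia) at 1.7 to 6.2. VWF (endothelium) and COL3A1 (fibroblasts) reached at most 0.208 and 0.749 CPM.

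In all, 6 members were higher in GlnIND cells, 1 was lower and 2 did not pass the test. Of the higher ones, ABAT passed the count filter only through the GlnIND libraries. The mitochondrial enzymes GOT2, GPT2, BCAT2, AADAT and ABAT rose, together with the cytosolic KYAT1, and the cytosolic BCAT1 fell. With the shift of their chromosomal neighbours subtracted, 3 members rose (KYAT1, AADAT and ABAT) and BCAT1 fell, beside 23.8% of all tested genes called higher and 25.1% called lower with that shift subtracted. GOT1 and KYAT3 were not called by edgeR's quasi-likelihood test with a Benjamini-Hochberg adjusted p under 0.05 over all tested genes. Among all tested genes 28.4% were called higher and 27.9% lower, so a call by itself was common in this comparison. The median log2 fold change of the 9 members was 0.38, against 0.03 over all tested genes. The groups stood apart, with no overlap in CPM, for the same 6 genes that rose and for BCAT1, and among all tested genes the shares without overlap were 33.7% higher and 31.3% lower. With library totals in place of TMM factors the calls over all genes were 5356 higher and 2810 lower, in place of 3965 and 3888, the median of all genes was 0.18 in place of 0.03, and the counts of members called stayed at 6 and 1.

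**Figure D1:**
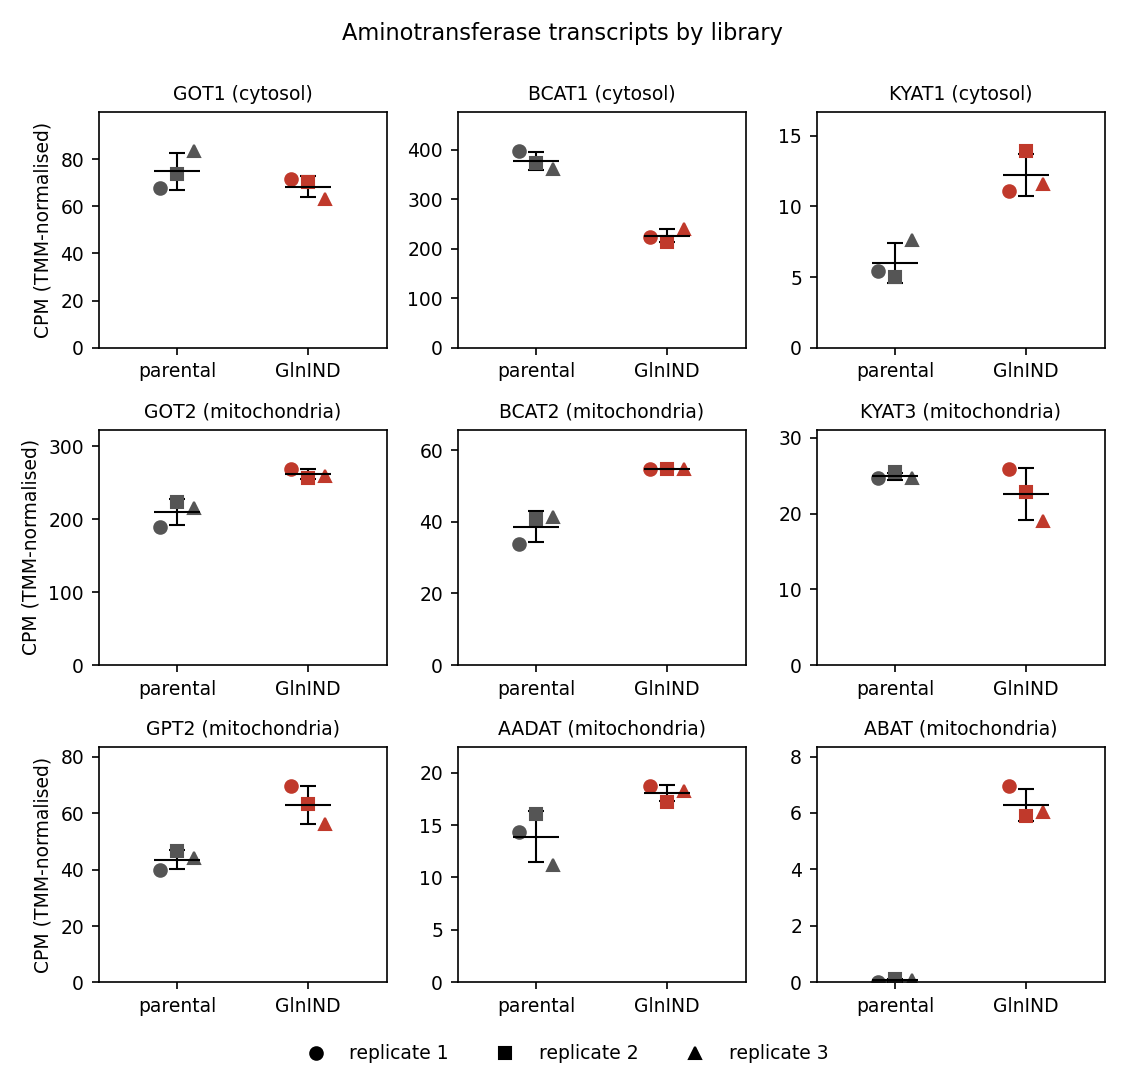
TMM-normalised CPM (y axis, each panel with its own range starting at 0) of the 9 genes in parental and GlnIND libraries. Points are libraries, marked by replicate number, horizontal bars are means and whiskers are SD (n = 3 per group). The groups overlap only for GOT1 and KYAT3, and ABAT lies near 0 in every parental library.

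Of the aspartate aminotransferases the mitochondrial form rose and the cytosolic form did not pass the test. GOT1, the cytosolic form, was at 67.8, 73.5 and 83.3 CPM in parental libraries 1, 2 and 3 and at 71.4, 70.3 and 63.2 CPM in the GlnIND libraries. The groups overlapped, with parental 1 lying below GlnIND 1 and 2. The means were 74.9 ± 7.86 and 68.3 ± 4.47 CPM (n = 3 each, ± SD), and the log2 fold change was -0.13 with an SE of 0.092 (adjusted p = 0.242 by edgeR). GOT2, which makes aspartate from oxaloacetate in the mitochondrial matrix, was at 189, 223 and 216 CPM in parental libraries and at 269, 256 and 259 CPM in GlnIND libraries. All GlnIND libraries lay above all parental ones. Its means were 209 ± 17.8 and 261 ± 6.91 CPM (n = 3 each, ± SD), and the log2 fold change was 0.32 with an SE of 0.073 (adjusted p = 0.00425 by edgeR). The GOT1 value depended on scaling and on 1 library, standing at 0.02 with library totals alone (adjusted p = 0.879 by edgeR) and at -0.21 without parental 1 (adjusted p = 0.00341 by edgeR). Leaving out parental 1 was not particular to GOT1 in its effect. Over all genes it gave 4601 calls higher and 4679 lower of 14232, against 3965 and 3888 of 13949.

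The count ratio of GOT2 to GOT1 within a library does not depend on scaling between libraries. It was 2.79, 3.03 and 2.59 in the parental libraries and 3.76, 3.63 and 4.10 in the GlnIND libraries. Every GlnIND ratio exceeded every parental one. The mean log2 ratio was 1.48 ± 0.12 and 1.94 ± 0.09 (SD, n = 3 each), a difference of 0.45, or 1.37-fold (exact two-sided permutation p = 0.1, the smallest that 3 libraries against 3 can give).

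The branched-chain aminotransferases, which take the amino group from leucine, isoleucine and valine, moved in opposite directions. BCAT1, the cytosolic form, was at 397, 373 and 360.3 CPM in parental libraries and at 224, 214 and 240.0 CPM in GlnIND libraries. The lowest parental library stood clear of the highest GlnIND one. The means were 377 ± 18.5 and 226 ± 13.3 CPM (n = 3 each, ± SD), and the log2 fold change was -0.74 with an SE of 0.069 (adjusted p = 1.91e-05 by edgeR), or 1.67-fold lower. BCAT2, the mitochondrial form present in most tissues, was at 33.7, 40.8 and 41.4 CPM in parental libraries and at 54.8, 54.7 and 54.8 CPM in GlnIND libraries. The GlnIND libraries were nearly equal and all above the parental ones. BCAT2 rose from 38.6 ± 4.27 to 54.8 ± 0.0615 CPM (n = 3 each, ± SD), and the log2 fold change was 0.50 with an SE of 0.092 (adjusted p = 0.00121 by edgeR).

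The BCAT2 to BCAT1 count ratio was 0.0851, 0.109 and 0.115 in parental libraries and 0.245, 0.256 and 0.229 in GlnIND libraries. The groups again did not overlap. The mean log2 ratio was -3.29 ± 0.23 and -2.04 ± 0.08 (SD, n = 3 each), a difference of 1.25, or 2.37-fold (exact two-sided permutation p = 0.1). Per kb of exon, which allows the levels of different genes to be set side by side, the ratio of BCAT2 to BCAT1 was 0.382 in parental and 0.907 in GlnIND cells. Gene models of another length would multiply these ratios by the same factor in each group.

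GOT1 and BCAT1 each hold in a promoter window a match to TGATGNAA. This is the core of the C/EBP-ATF response element, through which ATF4 acts in the amino acid response. The RefSeq windows (build GRCh38.p14) were searched over 250 bases before the start, on both strands. The GOT1 match lies 198 to 191 bases before the start, and the BCAT1 match lies 48 to 41 bases before 1 of the 5 listed starts. Each match is shown 5′ to 3′ on the gene's strand with 11 bases on either side, so that the stretch shown spans chr10:99430804-99430833 for GOT1 and chr12:24949131-24949160 for BCAT1, both on the minus strand. Capitals mark the match, which in GOT1 reads on the opposite strand.
GOT1: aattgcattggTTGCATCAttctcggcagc
BCAT1: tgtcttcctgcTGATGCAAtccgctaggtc
Windows were listed for 7 of the 9 members, GPT2 and BCAT2 being without an entry. These 7 genes had 18 windows, since a gene can have several starts. Of the 18, 2 held a match, beside 3.14% of all 35116 windows. No match lay in the windows of GOT2, KYAT1, KYAT3, AADAT or ABAT, of which KYAT1 is cytosolic and KYAT3 was not called. Without a BCAT2 window the branched-chain pair cannot be compared. The E-box CACGTG, the site of MYC and related factors, was in none of the 18 windows and in 6.34% of all windows. A match is a run of letters and not evidence of binding.

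GPT2, the mitochondrial alanine aminotransferase that joins pyruvate with the amino group of glutamate, was at 39.8, 46.4 and 44.1 CPM in parental libraries and at 69.5, 63.4 and 56.0 CPM in GlnIND libraries. Every GlnIND library was above every parental one. It rose from 43.5 ± 3.39 to 63.0 ± 6.78 CPM (n = 3 each, ± SD), and the log2 fold change was 0.54 with an SE of 0.1 (adjusted p = 0.00131 by edgeR). GPT, its cytosolic counterpart, had 2, 0 and 2 counts in parental libraries and 2, 4 and 14 in GlnIND libraries. Only GlnIND 3 was above the floor of 6 counts. GPT was not tested, and no ratio with it was formed because the parental group lay under the floor.

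**Figure D2:**
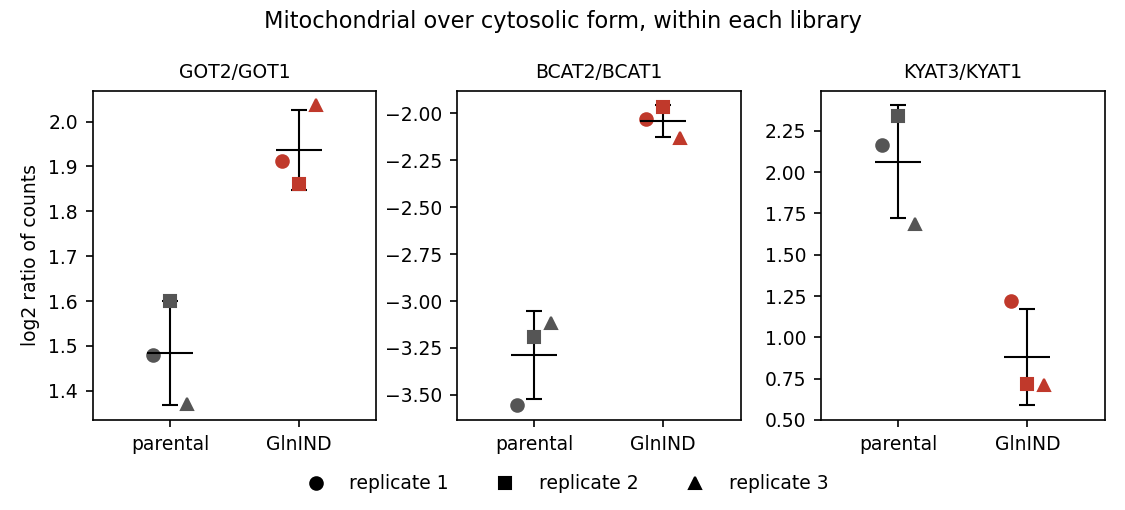
Log2 ratio of raw counts (plus 1) of the mitochondrial over the cytosolic gene within each library (y axis, a separate range per panel) for 3 pairs. Points are libraries, bars are means and whiskers are SD (n = 3 per group). The GOT2/GOT1 and BCAT2/BCAT1 ratios are higher in all GlnIND libraries, and KYAT3/KYAT1 is lower in all of them.

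The kynurenine aminotransferases turn kynurenine into kynurenic acid, and they also accept glutamine as an amino donor, which yields a 2-oxo acid that omega-amidase then converts to 2-oxoglutarate. KYAT1, also known as glutamine transaminase K and mainly cytosolic, was at 5.46, 4.98 and 7.64 CPM in parental libraries and at 11.1, 13.9 and 11.6 CPM in GlnIND libraries. The groups did not overlap. It rose from 6.02 ± 1.42 to 12.2 ± 1.49 CPM (n = 3 each, ± SD), and the log2 fold change was 1.02 with an SE of 0.18 (adjusted p = 0.00091 by edgeR). KYAT3, taken here as the mitochondrial form, was at 24.6, 25.5 and 24.7 CPM in parental libraries and at 25.9, 22.8 and 19.0 CPM in GlnIND libraries. The groups overlapped, with GlnIND 1 above all parental libraries and GlnIND 3 below all of them. Its log2 fold change was -0.14 with an SE of 0.12 (adjusted p = 0.33 by edgeR), and 0.01 with library totals alone (adjusted p = 0.955 by edgeR).

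The difference in the KYAT3 to KYAT1 ratio had the opposite sign to those of the aspartate and branched-chain pairs. The ratio was 4.49, 5.07 and 3.22 in parental and 2.33, 1.64 and 1.64 in GlnIND libraries. The mean log2 ratio was 2.06 ± 0.34 and 0.88 ± 0.29 (SD, n = 3 each), a difference of -1.18 (exact two-sided permutation p = 0.1). These 3 pairs were all that were compared. KYAT3 shares 469 exon bases, 20.3% of its exon length, with RBMXL1 on the same strand. RBMXL1 was at 77.3 ± 5.39 and 84.2 ± 4.67 CPM (n = 3 each, ± SD, adjusted p = 0.203 by edgeR). Reads from the shared exons may have been given to either gene or left out, so the KYAT3 level is uncertain.

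AADAT, the mitochondrial aminoadipate aminotransferase of lysine degradation, which also acts on kynurenine, was at 14.4, 16.1 and 11.2 CPM in parental libraries and at 18.7, 17.1 and 18.3 CPM in GlnIND libraries. Parental 3 was the lowest, and no parental library reached the GlnIND range. It rose from 13.9 ± 2.46 to 18.0 ± 0.802 CPM (n = 3 each, ± SD), and the log2 fold change was 0.38 with an SE of 0.14 (adjusted p = 0.0382 by edgeR). AADAT no longer passed without parental 3 (0.22, adjusted p = 0.14 by edgeR), without GlnIND 1 (0.34, 0.125), without GlnIND 2 (0.40, 0.0771) and without GlnIND 3 (0.36, 0.114).

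ABAT, the mitochondrial enzyme that passes the amino group of GABA to 2-oxoglutarate, showed the largest difference of the 9 genes. It had 0, 2 and 2 counts in parental libraries 1, 2 and 3, under the floor of 6, and 155, 142 and 157 counts in GlnIND libraries. The GlnIND level was 6.95, 5.91 and 6.03 CPM, so the gene went from near absence to a low level. Its entry to the test rested on the GlnIND libraries alone, the group where it was high. The ratio of GlnIND to parental levels was 89.2 with a 95% Clopper-Pearson interval from 24.4 to 741 on read pairs, which covers counting error only (adjusted p = 1.57e-06 by edgeR). In bulk RNA, expression in more cells and more RNA per cell cannot be told apart. ABAT shares 152 exon bases, 1.56% of its exon length, with TMEM186 on the opposite strand. TMEM186 had 237 to 313 counts in the parental libraries, in which ABAT had at most 2, and 428 to 493 counts in the GlnIND libraries. TMEM186 was itself called higher, with a log2 fold change of 0.41 (adjusted p = 0.0138 by edgeR). Whether reads were counted by strand is not given in the sources used here.

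ALDH5A1, which oxidises the succinic semialdehyde that ABAT makes to succinate, also rose. It went from 9.75 ± 0.282 to 39.1 ± 1.19 CPM (n = 3 each, ± SD), and the log2 fold change was 2.00 with an SE of 0.092 (adjusted p = 2.64e-07 by edgeR). GAD1, which makes GABA from glutamate, was at 9.48 ± 0.925 and 10.2 ± 1.44 CPM (n = 3 each, ± SD, adjusted p = 0.546 by edgeR), and its sister gene GAD2 was not tested. ALDH9A1 and AKR7A2, further enzymes of GABA and semialdehyde metabolism, were not called. Of the 4 tested genes of the GABA list, 1 rose and 0 fell. Without parental 1, a run with more calls over all genes, 1 gene of this list fell. With the shift of chromosomal neighbours removed GAD1 was also called higher, at 0.65 (adjusted p = 0.00482 by edgeR), and with the GC trend removed AKR7A2 was called lower, at -0.41 (adjusted p = 0.00531 by edgeR).

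Per kb of exon, the 9 genes kept GOT2 at the top in each group, at 85.0 ± 7.21 CPM per kb in parental and 106 ± 2.81 CPM per kb in GlnIND cells (SD, n = 3 each). In parental cells BCAT1 (37.2 CPM per kb) and GOT1 (25.6) followed, then BCAT2 (14.2), KYAT3 (11.8), GPT2 (9.73), AADAT (5.53), KYAT1 (2.42) and ABAT (0.0121). No neighbours in that order overlapped in range. In GlnIND cells GOT1 (23.4 CPM per kb) and BCAT1 (22.3) were not separated, since their ranges overlapped, and BCAT2 (20.2), GPT2 (14.1), KYAT3 (10.7), AADAT (7.18), KYAT1 (4.91) and ABAT (1.05) followed. GPT2 and KYAT3 exchanged places between the groups. With the longest transcript as the length, BCAT2 stood at 24.3 CPM per kb in GlnIND cells, and its range overlapped that of GOT1, while the parental order was the same.

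The summed level of the 9 genes was 192 ± 9.95 CPM per kb in parental and 210 ± 6.17 CPM per kb in GlnIND cells (SD, n = 3 each). The cytosolic genes GOT1, BCAT1 and KYAT1 made up 32.2% to 35.8% of this sum in parental libraries and 23.5% to 24.4% in GlnIND libraries. BCAT1 alone took 19.5% ± 1.97 and 10.6% ± 0.789, and GOT2 took 44.3% ± 1.52 and 50.6% ± 0.653 (SD, n = 3 each). ABAT remained the smallest share, at 0.497% ± 0.0309 in GlnIND cells (SD, n = 3).

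The genes around several members were shifted in the same direction. For each gene the median log2 fold change was taken over the 40 nearest tested genes on the same side of the widest gap on its chromosome. The median was 0.80 around GPT2, with 39 of 40 neighbours above 0. The window of 20 tested genes on each side, which for GPT2 crosses that gap, gave 0.44 with 31 of 40 above 0. The median was 0.43 around BCAT2, with 37 of 40 above 0. It was 0.21 around GOT2 and -0.39 around BCAT1. It was near 0 around ABAT (0.02), KYAT1 (-0.05), GOT1 (0.05) and KYAT3 (0.07), and negative around AADAT (-0.28), whose own change was positive. Among all tested genes 19.0% had a neighbour median of at least 0.4 in size.

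With the neighbour median subtracted as a known shift, 3 members were called higher in place of 6, namely KYAT1, AADAT and ABAT, and BCAT1 was still called lower. Among all tested genes 23.8% were then called higher and 25% lower. GOT2 then stood at 0.11 (adjusted p = 0.247 by edgeR) and BCAT2 at 0.07 (0.553). The direction for GPT2 depended on the window, at -0.26 (adjusted p = 0.0526 by edgeR) on one side of the gap and 0.09 (0.466) with 20 genes on each side, and it was called in neither. BCAT1 stood at -0.35 (0.00236), AADAT at 0.66 (0.00317) and KYAT1 at 1.06 (0.000912). The difference between the neighbour medians of BCAT2 and BCAT1 was 0.82, beside a difference in log2 ratio of 1.25, and that of GOT2 and GOT1 was 0.16 beside 0.45. These p-values leave out the error of the subtracted shift. What moved the neighbouring genes was not tested.

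**Figure D3:**
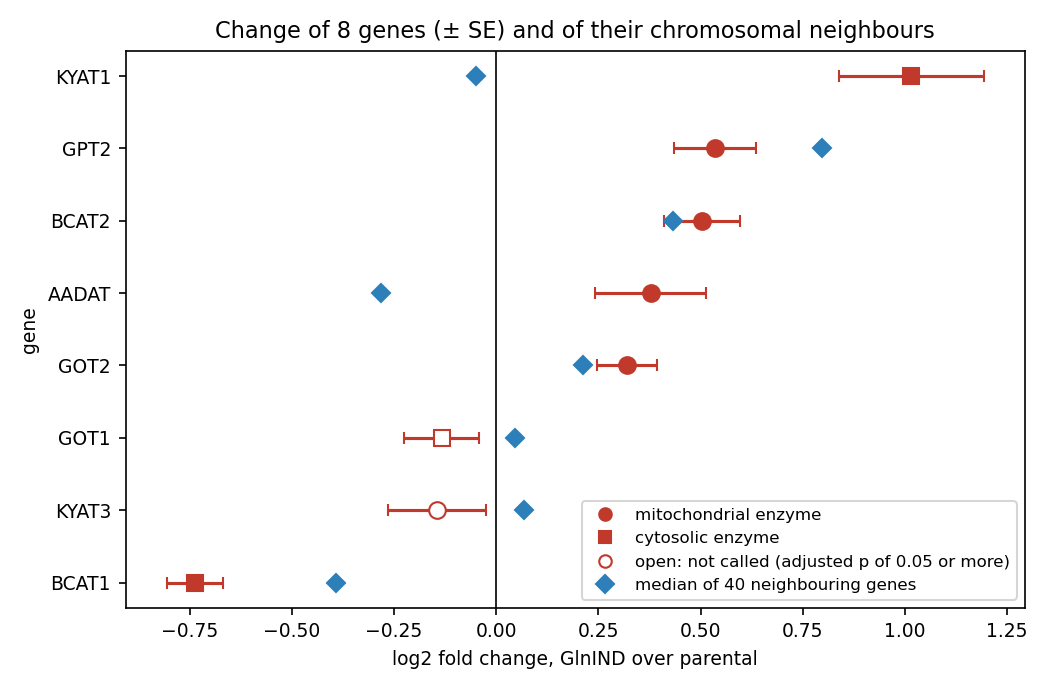
Log2 fold change of 8 genes (x axis, whiskers are SE from the edgeR fit to 3 against 3 libraries) with the median of 40 neighbouring tested genes as diamonds. GPT2, BCAT2 and GOT2 lie on the side of 0 where their neighbours lie, as does BCAT1, while KYAT1, AADAT, GOT1 and KYAT3 do not. ABAT, with a ratio of 89.2, is outside the plotted range.

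Among the genes that feed or drain these reactions, some rose and some fell, and the balance depended on the setting. Of 56 tested genes on 8 partner lists (71 genes in all), 16 rose (28.6%) and 13 fell (23.2%), beside 28.4% and 27.9% of all tested genes, with a median log2 fold change of 0.06. With the neighbour shift removed (20 genes on each side), 20 of them rose and 5 fell, beside 23.8% and 25.1% of all tested genes. With library totals alone 22 rose and 9 fell, and with upper-quartile factors 21 rose and 10 fell, both settings in which the calls over all genes also leaned higher (5356 and 2810, and 4749 and 3204).

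In the malate-aspartate shuttle 0 of 5 genes rose and 2 fell, and without parental 3, 1 gene rose. MDH2, the mitochondrial malate dehydrogenase, fell from 222 ± 15.5 to 138 ± 7.16 CPM (n = 3 each, ± SD), with a log2 fold change of -0.68. SLC25A13, a mitochondrial aspartate-glutamate carrier, fell from 74.6 ± 0.859 to 46.3 ± 2.42 CPM (n = 3 each, ± SD), with a log2 fold change of -0.69. The edgeR adjusted p was 4.47e-05 for MDH2 and 3.96e-05 for SLC25A13. Their cytosolic and alternative partners MDH1 and SLC25A12 had log2 fold changes of 0.03 and 0.01 and were not called. The neighbour medians were -0.56 for MDH2 and -0.59 for SLC25A13, and with that shift removed their changes were -0.12 (adjusted p = 0.195 by edgeR) and -0.10 (0.266). The counts of this list then turned to 2 higher and 0 lower, since SLC25A12 stood at 0.50 (adjusted p = 0.000956 by edgeR) and MDH1 at 0.28 (0.0396).

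Downstream of BCAT1 and BCAT2, 3 of 17 genes of branched-chain keto acid oxidation rose and 6 fell, with a median of -0.13. MCCC1, a subunit of the carboxylase of leucine breakdown, rose by 0.76 on the log2 scale, from 46.1 ± 3.03 to 78.2 ± 2.16 CPM (n = 3 each, ± SD, adjusted p = 3.01e-05 by edgeR). With library totals alone 6 genes of this list rose and 3 fell, with the GC trend removed 6 rose and 8 fell, and with the neighbour shift removed 4 rose and 3 fell. With upper-quartile factors 5 rose.

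Of 6 tested genes of kynurenine and lysine degradation 4 rose and 1 fell, and without GlnIND 1, 2 rose. AFMID, which releases kynurenine, rose by 0.59 on the log2 scale with an SE of 0.13 (adjusted p = 0.00319 by edgeR). AASS, the first enzyme of lysine breakdown by way of saccharopine and thus upstream of AADAT, fell from 91.2 ± 17.1 to 53.1 ± 3.09 CPM (n = 3 each, ± SD), and the log2 fold change was -0.78 (adjusted p = 0.000464 by edgeR). The neighbour median of AASS was -0.72, and its change was -0.07 with that shift removed (adjusted p = 0.686 by edgeR), when 3 genes of this list rose and 0 fell. IDO1, TDO2 and KMO, which make or use kynurenine, were among the 6 genes of this list without enough counts to be tested.

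Among the other aminotransferases 4 of 11 genes were tested, of which 2 rose and 0 fell. These were ACCS, an aminotransferase-like protein, from 1.06 ± 0.204 to 2.31 ± 0.425 CPM (n = 3 each, ± SD, adjusted p = 0.00543 by edgeR), and PHYKPL, a phospholyase of the same fold, by 0.60 on the log2 scale (adjusted p = 0.0159 by edgeR). PHYKPL no longer passed without parental 3 (0.49, adjusted p = 0.054 by edgeR) and without GlnIND 2 (0.43, 0.0821), leaving 1 gene higher, nor with the GC trend removed (0.42, 0.0707) or at an adjusted p of 0.01. OAT, the mitochondrial ornithine aminotransferase, was at 182 ± 19.5 and 198 ± 4.37 CPM (n = 3 each, ± SD, adjusted p = 0.204 by edgeR). With library totals alone and with upper-quartile factors all 4 tested genes were called higher, OAT at 0.28 (adjusted p = 0.0194 by edgeR) and 0.22 (0.0476).

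In the list of glutamate and 2-oxoglutarate supply 2 of 7 genes rose. GLUL, glutamine synthetase, rose by 1.87 on the log2 scale (adjusted p = 6.29e-08 by edgeR). The glutamate dehydrogenase gene GLUD1 was at 301 ± 23.4 and 283 ± 5.05 CPM (n = 3 each, ± SD, adjusted p = 0.278 by edgeR). In this list 1 gene rose when parental 3, GlnIND 1 or GlnIND 3 was left out, and 1 when the GC trend was removed.

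Of 6 genes of omega-amidase and pyridoxal phosphate supply 1 rose and 2 fell, and 1 fell when any library other than parental 1 was left out. With the neighbour shift removed 0 rose and 1 fell. PLPBP, a pyridoxal phosphate binding protein, fell by 0.47 on the log2 scale (adjusted p = 0.00092 by edgeR). NIT2, the omega-amidase that follows the KYAT1 reaction with glutamine, was at 42.5 ± 6.67 and 40.7 ± 3.89 CPM (n = 3 each, ± SD, adjusted p = 0.692 by edgeR). Of 7 substrate transporters 3 rose and 1 fell. Without parental 1, a run with more calls over all genes, 3 fell, and with the GC trend removed 2 fell. SLC1A3, a plasma membrane glutamate and aspartate transporter, rose from 6.47 ± 0.728 to 17.8 ± 0.953 CPM (n = 3 each, ± SD, adjusted p = 1.15e-05 by edgeR). SLC7A5, which takes up the branched-chain amino acids, fell from 500.1 ± 107 to 301 ± 17.1 CPM (n = 3 each, ± SD), and the log2 fold change was -0.73 (adjusted p = 0.00137 by edgeR).

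**Figure D4:**
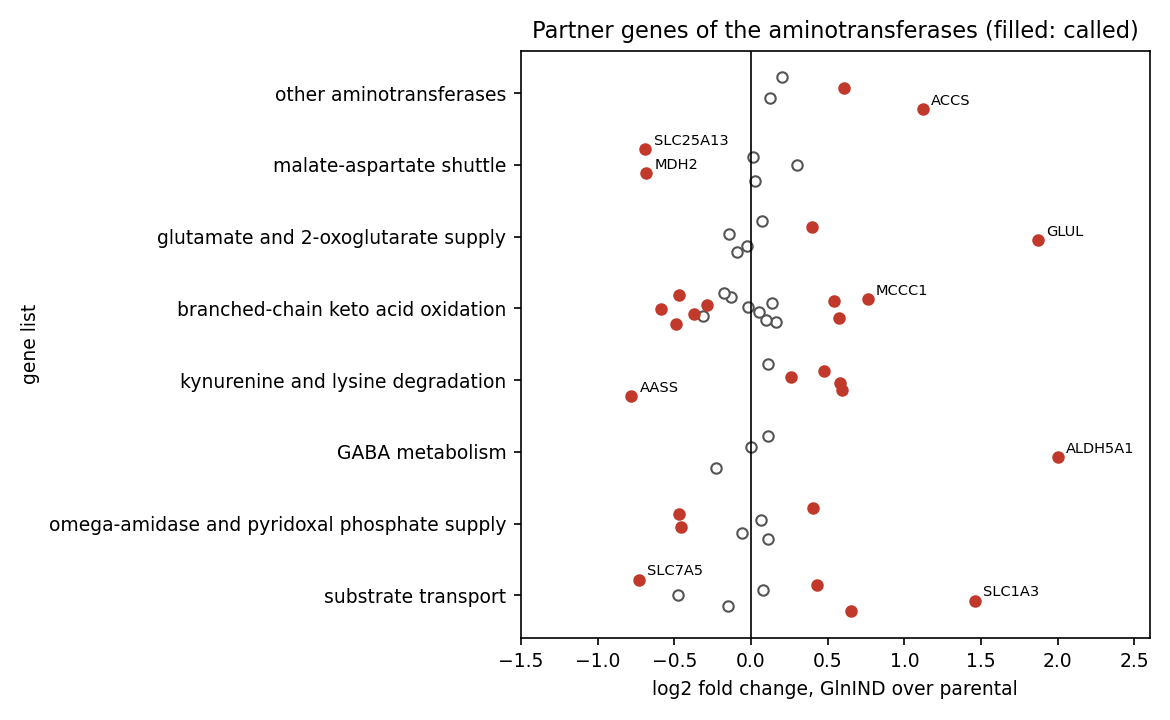
Log2 fold change (x axis) of 54 of the 56 tested partner genes in 8 lists (y axis), with filled points for genes called at an adjusted p under 0.05 and open points for the others. Points within a list are spread vertically for legibility only. ALDH5A1, at 2.00, lies farthest to the right and AASS, at -0.78, farthest to the left of the genes plotted.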

How the data were processed

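Raw counts by gene symbol were deposited by the authors as 6 tables and 1 matrix. The submitters' processing notes name FastQC, STAR, featureCounts, DESeq and build hg19. Versions, annotation, strand and multimapping settings are not given in the sources used here. Replicates follow the tables, since the matrix held the same values with replicates 1 and 3 exchanged within each group. The counts were tested with edgeR 4.0.16 in R 4.3.3 (glmQLFit, TMM, filterByExpr with minimum count 10 and total 15, group only). CPM values use TMM library sizes. SE was computed from the F statistic. The fit was also run on simulated counts, with few genes changed and no shift shared by neighbouring genes. The real data differ in both, so that run does not show how the fit behaves here. Lengths are unions of GENCODE 29 basic exons, and gene order and promoters come from RefSeq GRCh38.p14, to which 27609 of 28265 symbols matched. Exon overlaps between genes, and their shares of exon length, use all GENCODE 29 exons. In the main fit library sizes were summed over the 13949 tested genes, which held 99.94% of the counts. Alternatives were other scaling factors and filters, leaving out libraries, a replicate block, DESeq2 1.42.0, limma-voom (limma 3.58.1), robust dispersion, a stricter threshold, and removal of a neighbour shift or GC trend.

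The members, lists and tests were chosen with earlier results of these data known. Named were all members, GPT, the genes whose exons overlap a member, per list the 2 called genes that changed most, at a mean of at least 1 CPM (the individual results of 2 of these are not reported or plotted here, though both are in the counts over all partner genes), and the 3 genes most correlated with GOT1 and with GOT2. Some further list genes (GAD1, GAD2, ALDH9A1, AKR7A2, MDH1, SLC25A12, IDO1, TDO2, KMO, OAT, GLUD1 and NIT2) were named after their values were seen.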

Additional observations from a re-analysis of the deposited data

How the results depend on the processing

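Members called higher numbered 3 with the neighbour shift removed, by a window of 20 tested genes on each side or by one that does not cross the widest gap, the latter chosen after seeing the data. Members called lower numbered 1 to 2 when single libraries were left out, 2 without parental 1. Without parental 1 more of all tested genes were also called, 4601 higher and 4679 lower of 14232. The main fit called 3965 and 3888 of 13949. Partner genes called lower numbered 5 with either neighbour shift removed, against 13. The log2 fold change reversed for GPT2 (-0.26 with the window on one side of the gap, 0.09 with the other window), for GOT1 (0.0187 with library totals alone) and for KYAT3 (0.0087 with library totals alone). The cause was not tested. Direction and call held for BCAT1 and KYAT1 in every alternative run. They also held for ABAT, whose entry to the main test rested on the GlnIND libraries alone. The 3 count ratios kept their direction in their own runs. Leaving out a library or scaling by length could not have reversed them, since the groups did not overlap. With an adjusted p under 0.01 AADAT was not called. PDXK, a kinase that makes pyridoxal phosphate, had a log2 fold change of -0.46 (adjusted p = 0.0353 by edgeR), and it no longer passed at an adjusted p of 0.01, with upper-quartile factors, library totals, limma-voom, the neighbour shift removed and without any library other than parental 1.

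Whether same-numbered libraries share a culture or batch is not given in the sources used here. Their deviations from the group means correlated at -0.06, 0.03 and -0.04 over 13949 genes. Parental 1 correlated best with GlnIND 3 (0.08) and parental 3 with GlnIND 1 (0.05). With 3 libraries per group such values cannot show whether a pairing exists. With the replicate block 3719 genes were called higher and 3584 lower, against 3965 and 3888, and the AADAT log2 fold change was 0.39 (adjusted p = 0.0505 by edgeR). No other member's call changed with it. Depth limited ABAT in parental cells and GPT in each group, where counts lay near or under the floor.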

Other observations

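Across the 6 libraries the genes with log2 CPM most like GOT1 were MRFAP1, SNHG8 and XPO5 (Pearson r = 0.99, 0.98 and 0.97 over 6 libraries, among 9436 genes with a mean of at least 10 CPM). None of the 3 was called, and their log2 fold changes were -0.04, -0.20 and -0.09. The genes most like GOT2 were FRMD8, ZNRF1 and MAP3K3 (r = 0.999, 0.997 and 0.996), which rose by 0.96, 0.70 and 0.41 on the log2 scale. The libraries share group and scaling, and 1293 of the 9436 genes had r over 0.9 with GOT2 against 59 with GOT1, so likeness to GOT2 mostly lists genes that rose.

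The pyruvate carrier genes, which supply the keto acid that GPT2 uses, did not move alike. MPC1 rose from 25.3 ± 3.38 to 39.6 ± 2.47 CPM (n = 3 each, ± SD, adjusted p = 0.000809 by edgeR), while MPC2 was at 35.4 ± 0.729 and 32.0 ± 1.54 CPM (n = 3 each, ± SD, adjusted p = 0.15 by edgeR). ALDH7A1, which acts just before AADAT in lysine breakdown, rose from 151 ± 11.9 to 226 ± 6.29 CPM (n = 3 each, ± SD, adjusted p = 0.000102 by edgeR). MPC1, MPC2 and ALDH7A1 were picked after their values were seen.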
